A study of Mus musculus with 13 samples.

Results

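Cartilage oligomeric matrix protein (gene Comp) and the 4 other thrombospondin genes (Thbs1, Thbs2, Thbs3 and Thbs4) were compared between aged and young mandibular condylar cartilage, which caps the head of the lower jaw where it meets the skull in the temporomandibular joint. The genes were chosen by their symbols, and all 5 were found among the 18748 genes of the deposited table. They, and the partner and marker lists used below, were chosen with earlier results of these data known. There were 6 libraries of aged mice (18 months old) and 7 of young mice (2 months old), all of messenger RNA extracted directly from the cartilage. The labels give no strain, sex, genotype or treatment, and do not say whether a library came from 1 mouse, so p-values measure only the spread between these libraries. The depth, as the total of expected counts, ranged from 16356839 to 17876681 over the aged libraries and from 17531694 to 18203443 over the young ones. Markers of chondrocytes, osteoblasts, skeletal muscle, blood cells, vessels and macrophages, summed over each list, were detected in each library. The chondrocyte marker Matn1 alone lay near the limit of detection in aged cartilage.

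Thrombospondins are secreted, calcium-binding glycoproteins that sit between cells and the fibrils around them. Thrombospondins 1 and 2 form trimers and carry properdin-like type 1 repeats, which bind the receptor CD36 and restrain blood vessel growth. Thrombospondins 3 and 4 and COMP form pentamers without those repeats. COMP is abundant in cartilage, tendon and ligament, where it binds collagens, matrilins and fibronectin, and mutations in human COMP cause pseudoachondroplasia and multiple epiphyseal dysplasia.

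In aged cartilage the pentamer genes Comp and Thbs4 were about doubled, the trimer gene Thbs2 was lower, and Thbs3 and Thbs1 were not called. By edgeR's quasi-likelihood test over 14067 genes, with p-values adjusted by Benjamini-Hochberg and called under 0.05, 3 of the 5 genes were called, beside 46.2% of all tested genes. With a background that high, the count alone is not read as a result about the family.

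The 250 bases upstream of the annotated start are shown for Thbs4, Thbs3 and Thbs2. These are the 3 of the 5 genes that matched the RefSeq promoter table (build GRCm38.p6). In aged cartilage Thbs4 was called higher and Thbs2 lower, while Thbs3 was not called. Capitals mark the matches to 6 motifs searched on both strands, and no matches overlapped.
Thbs4 (chr13:92794819-92795068, minus strand): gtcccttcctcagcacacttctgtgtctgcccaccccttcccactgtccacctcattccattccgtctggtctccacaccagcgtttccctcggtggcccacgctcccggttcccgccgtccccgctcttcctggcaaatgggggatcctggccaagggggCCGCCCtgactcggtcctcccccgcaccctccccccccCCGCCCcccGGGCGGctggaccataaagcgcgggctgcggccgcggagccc
Thbs3 (chr3:89214930-89215179, plus strand): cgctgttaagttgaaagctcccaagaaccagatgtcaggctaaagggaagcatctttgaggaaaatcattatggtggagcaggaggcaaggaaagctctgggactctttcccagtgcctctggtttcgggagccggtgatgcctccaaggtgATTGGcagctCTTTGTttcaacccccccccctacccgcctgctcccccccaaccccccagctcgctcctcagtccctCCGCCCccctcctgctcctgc
Thbs2 (chr17:14694263-14694512, minus strand): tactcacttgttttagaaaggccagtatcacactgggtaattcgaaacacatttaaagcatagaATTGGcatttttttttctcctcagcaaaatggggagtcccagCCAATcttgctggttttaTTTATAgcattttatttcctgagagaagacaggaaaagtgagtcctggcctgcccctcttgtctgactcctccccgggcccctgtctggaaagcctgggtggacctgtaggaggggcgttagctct

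The upstream window of Thbs4 was 70.8% G and C, that of Thbs3 58.8% and that of Thbs2 46.8%, against a median of 52.4% over 32817 windows of the same length. Thbs4 held 3 matches to the GC box (GGGCGG), Thbs3 held 1 and Thbs2 held 0, and 32.7% of all windows held at least 1. The CCAAT box (CCAAT) matched 2 times in Thbs2, 1 time in Thbs3 and 0 times in Thbs4 (33.8% of all windows). A SOX core (ACAAAG) was present only in Thbs3 among the 3 (16.5% of all windows), and a TATA box (TATAAA) only in Thbs2, at 126 bases before the start (12.4%). The AP-1 site (TGANTCA, 6.75% of all windows) and the RUNX site (TGTGGT, 14.0%) had no match in these 3 windows. These matches describe letters in the reference and were not tested against the expression data.

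Comp was by far the most abundant of the 5 in each library. Its level per length ran from 2266 FPKM (fragments per kilobase of transcript at equal depth, as deposited) through a median of 3357 to 4588 FPKM in aged cartilage, and from 1205 through 1316 to 1560 FPKM in young cartilage. The ages did not overlap, which on the CPM scale held for Comp and Thbs4 among the 5 members and for 19.2% of all tested genes. On a second scale, CPM, which adjusts counts for depth with TMM factors but not for length, Comp averaged 6286 ± 1872 CPM in aged cartilage (SD, n = 6) and 3100 ± 355 CPM in young cartilage (SD, n = 7). The log2 fold change was 1.02 ± 0.17 (SE, edgeR adjusted p = 0.000232), with a 95% interval of 0.66 to 1.38, and 11.5% of tested genes changed by more in either direction. By FPKM, Comp ranked between 9 and 18 among all genes in aged libraries and between 19 and 38 in young libraries. It took 0.680 ± 0.183% of all counts in aged and 0.288 ± 0.0302% in young cartilage. Shares and FPKM use no TMM factors, which ran from 1.044 to 1.155 in aged and 0.9028 to 0.9575 in young libraries. Col1a1 and Col1a2 together took 4.766 to 6.451% of counts in aged and 16.83 to 20.14% in young libraries. Without TMM factors, on log2(FPKM + 1), the log2 fold change of Comp was 1.18.

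The rise of Comp was uneven within the aged group. Aged replicate 4 stood highest at 9177 CPM, and aged replicates 1 and 6 stood lowest at 4076 and 4404 CPM, still above the highest young library at 3563 CPM. The coefficient of variation of the CPM was 29.8% in aged and 11.4% in young libraries. Aged replicate 4 also had the highest sum of 10 chondrocyte markers in its group, 16520 CPM. The other aged libraries ran from 6280 to 10584 CPM and the young libraries from 23593 to 38250 CPM. Most of that sum was Col2a1, at a mean of 6836 CPM in aged and 25340 CPM in young cartilage. The osteoblast sum of aged replicate 4, 8416 CPM, was the highest of its group too, where the others ran from 4901 to 5635 CPM. Other aged libraries did not keep the order of the chondrocyte sum. Aged replicate 1 had the second highest sum (10584 CPM) and the lowest Comp. Aged replicate 2 had the lowest sum (6280 CPM) and 6366 CPM of Comp. Of those 10 markers, 8 fell and none rose, beside 21.6% of all tested genes called lower, while Comp rose. Sox9 (87.2 CPM in aged and 80.7 CPM in young cartilage) and Acan (2039 and 2119 CPM) were the 2 markers not called. In bulk RNA, fewer cells of a type and less RNA per cell cannot be told apart.

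Thbs4, a pentamer found in tendon, muscle and heart, was the second most abundant of the family in aged cartilage. Its level ran from 184.7 through 271.5 to 340.7 FPKM in aged libraries and from 97.6 through 122.3 to 141.6 FPKM in young libraries, with no overlap. On the CPM scale it averaged 691 ± 170 in aged (SD, n = 6) and 373 ± 59.9 in young cartilage (SD, n = 7). Its log2 fold change was 0.89 ± 0.15 (SE, edgeR adjusted p = 0.000372), with a 95% interval of 0.56 to 1.22 and 13.8% of tested genes changing by more.

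Skeletal muscle markers were also higher in aged cartilage. Of 12 markers, 11 were called higher in aged cartilage and none lower, beside 24.7% of all tested genes called higher. Their summed level ran from 4449 to 17090 CPM in aged and from 607 to 5501 CPM in young libraries. None of the 12 was at 0 in all libraries. Among aged libraries Thbs4 was highest in replicate 3 (947 CPM), which also had the highest muscle sum, and lowest in replicate 1 (459 CPM), which had the lowest. Young replicates 2 and 4 had the highest muscle sums of their group (5501 and 4342 CPM) and also the highest Thbs4 (451 and 429 CPM). Not all libraries followed that order. Young replicate 7 had the second lowest muscle sum of its group (715 CPM) and 390 CPM of Thbs4, above young replicates 3 and 6 (325 and 323 CPM), whose muscle sums were 1508 and 1562 CPM. Aged replicates 1 and 6, with muscle sums of 4449 and 5350 CPM, did not exceed young replicate 2 in muscle markers, and their Thbs4 levels were 459 and 743 CPM, the lowest and the second highest of the aged group. With the muscle score as a covariate the log2 fold change of Thbs4 was 0.46 (edgeR adjusted p = 0.101) and that of Comp 0.79 (edgeR adjusted p = 0.0522), so both calls were lost. With aged replicates 2, 3 and 5 left out, the 3 aged libraries richest in muscle markers, they were 0.65 (edgeR adjusted p = 0.00645) and 0.93 (edgeR adjusted p = 0.00446).

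Tendon markers did not move together. Tnmd (6.34 CPM in aged and 5.00 CPM in young cartilage) and Scx (25.1 and 20.6 CPM), which mark tendon cells, were not called, Mkx and Kera were called lower, and Fmod, which cartilage also expresses, was called higher. Their summed level ran from 6261 to 10515 CPM in aged and from 4740 to 6342 CPM in young libraries, nearly all of it Fmod. Any part of tendon tissue in the levels of Comp and Thbs4 was not tested.

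Thbs3, a pentamer made by cartilage and bone cells, was not called. It ran from 101.8 through 119.0 to 140.4 FPKM in aged and from 101.0 through 106.0 to 130.7 FPKM in young libraries, which overlapped over most of their range. The log2 fold change was −0.10 ± 0.11 (SE, edgeR adjusted p = 0.498) with a 95% interval of −0.34 to 0.14, and it was above 0 with library sizes alone, on the FPKM scales and when the score of erythroid and neutrophil markers was a covariate. In the GENCODE annotation (GRCm38) the gene Mtx1 overlaps Thbs3 on the opposite strand. The libraries were strand-specific per the labels, while no source used here gives the strand setting of the counting. Mtx1 stood at 21.6 ± 0.903 FPKM in aged (SD, n = 6) and 20.8 ± 0.937 FPKM in young cartilage (SD, n = 7), well under Thbs3.

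**Figure D1:**
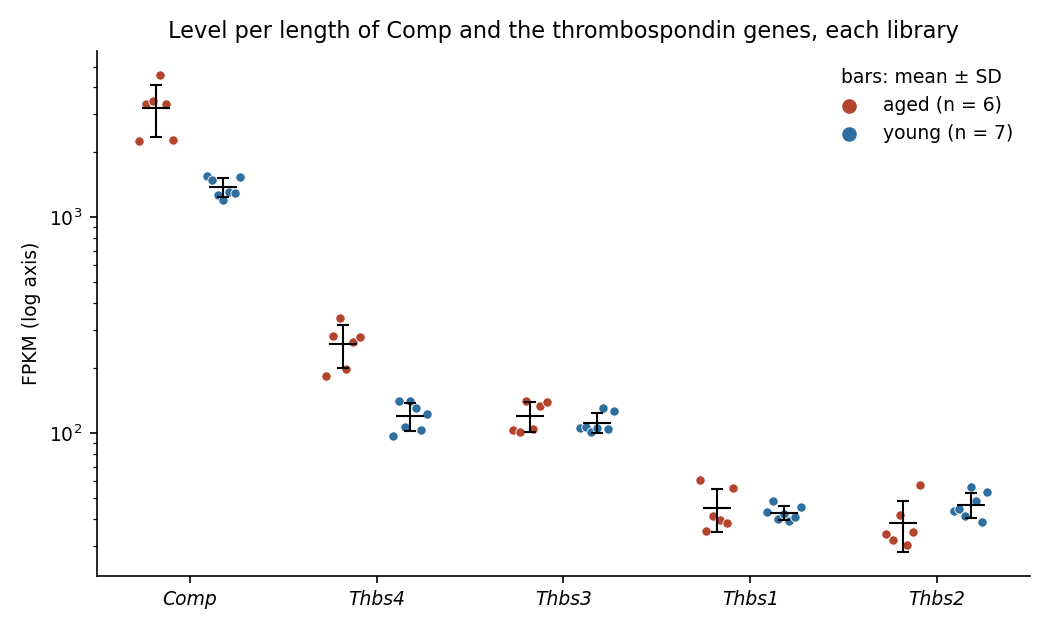
Level per length (FPKM, log axis) of the 5 genes in each library, aged to the left of young, with mean and SD. Comp (2266 to 4588 against 1205 to 1560 FPKM) and Thbs4 (184.7 to 340.7 against 97.6 to 141.6 FPKM) separate by age, while the other 3 genes overlap.

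Among the trimers, Thbs1, the thrombospondin stored in platelets and an activator of latent TGF-beta, was not called. It ran from 35.2 through 40.6 to 60.4 FPKM in aged and from 39.2 through 42.2 to 48.4 FPKM in young libraries, so that the aged libraries lay both below and above the young ones. The log2 fold change was −0.15 ± 0.11 (SE, edgeR adjusted p = 0.301) with a 95% interval of −0.39 to 0.09, and its sign turned with library sizes alone, on the FPKM scales, with the muscle score and without the 3 aged libraries richest in muscle.

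The aged spread of Thbs1 followed 2 libraries. Aged replicates 1 and 6 had 289 and 281 CPM, and the other 4 aged libraries ran from 174.3 CPM in replicate 2 to 219 CPM in replicate 3. Megakaryocyte and platelet markers were also highest in aged replicates 6 and 1 (summed CPM of 635 and 563) and lowest in aged replicate 2 (65.0). Of these 11 markers, 10 were called higher in aged cartilage and none lower, beside 24.7% of all tested genes called higher. Their sums ran from 65.0 to 635 CPM in aged and from 43.5 to 106 CPM in young libraries, and none of the 11 was at 0 in all libraries. Aged replicates 1 and 6 also had the highest erythroid sums (1593 and 1549 CPM) and neutrophil sums (5064 and 5771 CPM) of their group. Their muscle sums were the lowest (4449 and 5350 CPM). Aged replicate 5 had a higher platelet sum than aged replicate 3 (409 against 280 CPM) but less Thbs1 (199 against 219 CPM). Young libraries held 229 to 296 CPM of Thbs1. Which cell type goes with Thbs1 was not tested. With the megakaryocyte and platelet score as a covariate, a fit chosen after seeing the data, the log2 fold change of Thbs1 was −0.59 (edgeR adjusted p = 0.0435). Endothelial markers, another known source of Thbs1, summed to between 299 and 516 CPM in aged and between 426 and 592 CPM in young libraries. Of 7 such markers, 3 were called lower and none higher, beside 21.6% of all tested genes called lower.

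Thbs2, a trimer of fibroblasts and mesenchymal cells that regulates collagen fibril assembly, was lower in aged cartilage. It ran from 30.4 through 34.4 to 57.8 FPKM in aged and from 38.8 through 44.5 to 56.3 FPKM in young libraries. Aged replicate 6 had the highest FPKM of all 13 libraries, and the ages overlapped. On the CPM scale Thbs2 averaged 199 ± 53.7 in aged (SD, n = 6) and 281 ± 39.1 in young cartilage (SD, n = 7). The log2 fold change was −0.50 ± 0.15 (SE, edgeR adjusted p = 0.0126), with a 95% interval of −0.81 to −0.19. The call depended on scaling: with library sizes alone the log2 fold change was −0.27 (edgeR adjusted p = 0.121), where the median over all tested genes was 0.24, against 0.014 with TMM factors. It was also lost on the FPKM scales, at log2 fold changes of −0.297 and −0.304 with pseudocounts of 1 and 0.1. With a marker score as a covariate the call was lost at a log2 fold change as large or nearly so, −0.47 for muscle, −0.55 for erythroid and neutrophil markers and −0.82 for megakaryocyte and platelet markers (edgeR adjusted p = 0.142, 0.284 and 0.061). Without the 3 aged libraries richest in muscle it was lost at −0.43.

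**Figure D2:**
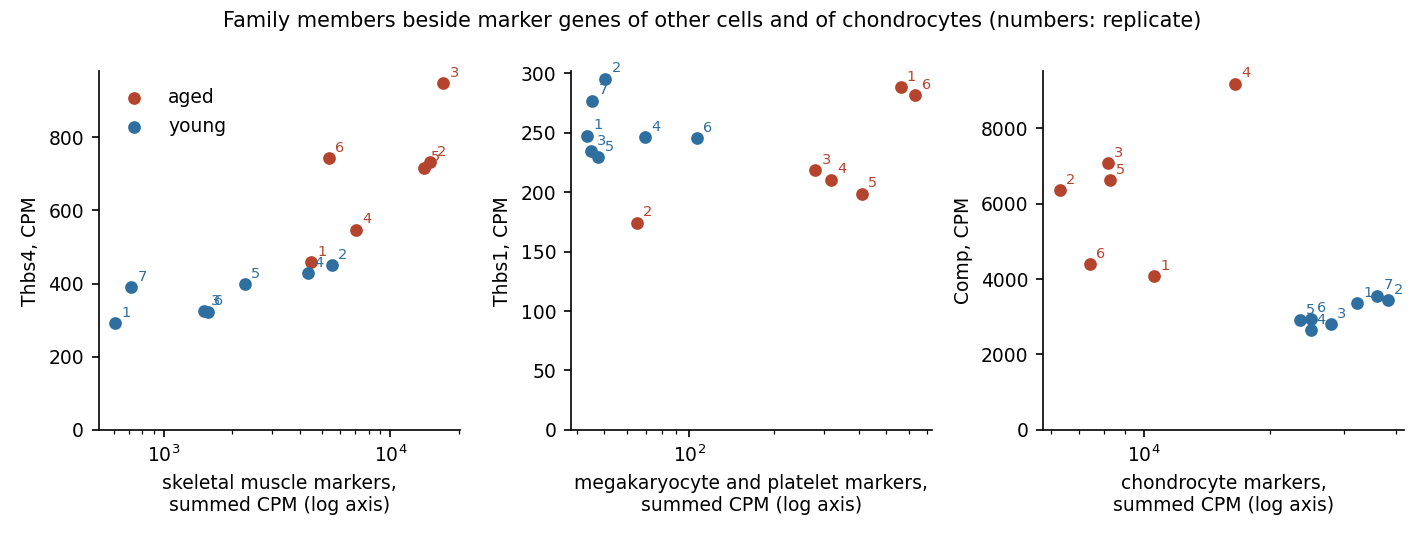
CPM of Thbs4, Thbs1 and Comp in each library (numbers give the replicate) against the summed CPM of skeletal muscle, megakaryocyte and platelet, or chondrocyte markers (log axes), aged red and young blue. Thbs4 is highest in aged replicate 3, which has the highest muscle sum (17090 CPM), Thbs1 is highest among aged libraries in replicates 1 and 6, which have the highest platelet sums, and Comp is highest in aged replicate 4.

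By mean level per length the family had nearly the same order at both ages, apart from Thbs1 and Thbs2, whose means exchanged places. In aged cartilage the order of mean FPKM was Comp (3220 ± 870), Thbs4 (258 ± 58.0), Thbs3 (120 ± 19.1), Thbs1 (45.1 ± 10.3) and Thbs2 (38.4 ± 10.2), all as SD with n = 6. In young cartilage it was Comp (1384 ± 144), Thbs4 (120 ± 18.3), Thbs3 (112 ± 11.8), Thbs2 (46.7 ± 6.38) and Thbs1 (42.7 ± 3.24), as SD with n = 7. Thbs4 and Thbs3 overlapped in young libraries but not in aged ones, and Thbs1 and Thbs2 overlapped at both ages. Either of Thbs1 and Thbs2 could be the higher within a library at each age: Thbs2 was above Thbs1 in aged replicates 3 and 6, and Thbs1 above Thbs2 in young replicates 2 and 6, so an exchange with age was not shown. The 5 genes summed to 2649 to 4961 FPKM in aged and 1551 to 1888 FPKM in young libraries, without TMM factors. Comp made up 81.0 to 92.5% and 77.7 to 84.3% of that sum.

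Ratios within a library do not depend on how libraries are scaled to one another. Thbs4 was 1.78 to 2.77 times Thbs3 in aged and 0.924 to 1.33 times Thbs3 in young libraries, and the ages did not overlap. Thbs4 was 4.84 to 8.82 times Thbs2 in aged and 2.24 to 3.18 times Thbs2 in young libraries. Comp to Thbs3 ran from 16.4 to 44.1 in aged and from 10.1 to 14.8 in young libraries. By contrast, Comp to Thbs4 had nearly the same median at both ages, 12.1 in aged (range 8.13 to 23.1) and 11.9 in young cartilage (range 8.53 to 16.0). The ratio of Thbs2 to Thbs1 ran from 0.565 to 1.04 in aged and from 0.921 to 1.33 in young libraries and overlapped. Of the 10 possible ratios, 5 did not overlap between the ages, each with Comp or Thbs4 over Thbs1, Thbs2 or Thbs3. The share of separated ratios over other gene pairs was not computed.

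**Figure D3:**
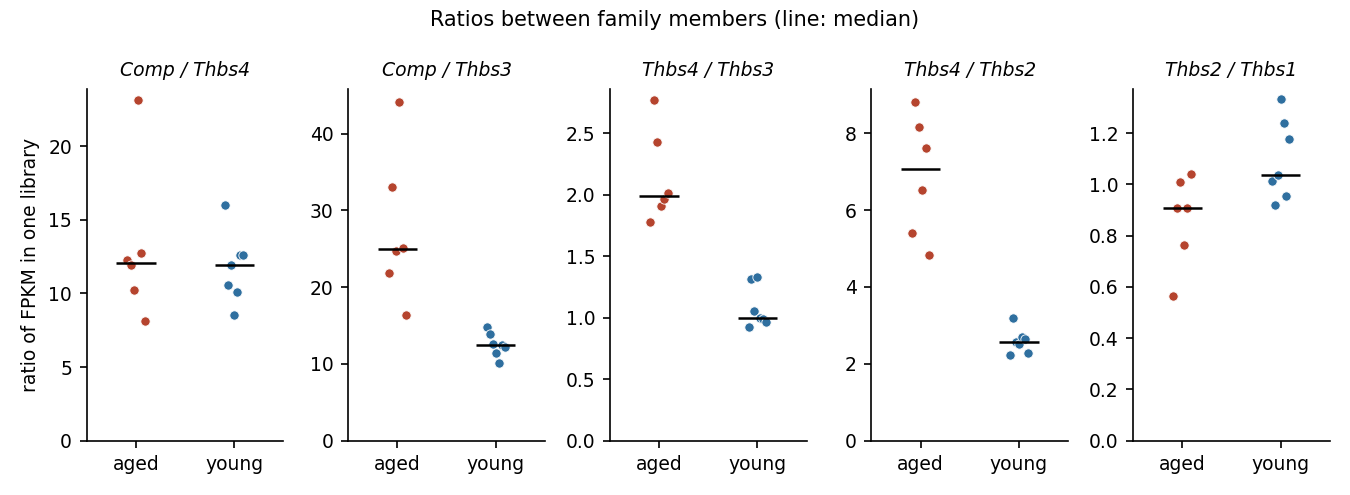
Ratios of FPKM between 2 family members in each library, aged left of young, with the median as a line. Thbs4 over Thbs3 (1.78 to 2.77 against 0.924 to 1.33), Thbs4 over Thbs2 and Comp over Thbs3 separate by age, while Comp over Thbs4 and Thbs2 over Thbs1 overlap.

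Most of the listed matrix partners of COMP fell while Comp rose. Of 13 matrix partners, 9 fell, 1 rose and 3 were not called, at a median log2 fold change of −1.89, beside 21.6% of all tested genes called lower and 24.7% called higher at a median of 0.014. Col2a1, Acan, Matn1, Matn3, Col9a1, Col9a2 and Col9a3 are also among the chondrocyte markers counted above. The partner count is therefore not separate from the marker count. The list was also chosen with earlier results of these data known, so its count is not an independent comparison with all tested genes. The type IX collagen chain Col9a1, which sits on the surface of cartilage fibrils, stood at 5.50 ± 3.65 FPKM in aged and 143 ± 25.8 FPKM in young cartilage (log2 fold change −5.06 ± 0.43, SE, edgeR adjusted p = 1.27e-06). Matn3, a matrilin adaptor protein of cartilage, had a log2 fold change of −4.22 ± 0.32 (SE). Matn1, another matrilin, also fell but was near the limit of detection, at 0.0271 CPM in aged and 0.745 CPM in young cartilage, so no fold is given. Col1a2, the partner with the highest mean FPKM at both ages, had a log2 fold change of −1.81 ± 0.10 (SE). Fibronectin (Fn1) was the 1 partner that rose, at 4670 ± 910 FPKM in aged and 1527 ± 219 FPKM in young cartilage (log2 fold change 1.38 ± 0.15, SE, edgeR adjusted p = 8.29e-06).

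Ratios of Comp to 5 matrix genes were computed within each library, and 3 of them did not overlap between the ages. No share over other genes was computed beside that count. On the CPM scale Comp in aged libraries lay wholly above its young range, and Col2a1 and Col1a1 lay wholly below theirs. The ratios of Comp to Col2a1 and to Col1a1 therefore had to separate. The ratio of Comp to Col2a1, the main collagen of cartilage, was 1.10 to 3.08 in aged and 0.231 to 0.327 in young libraries by FPKM. Comp to Col1a1 ran from 0.411 to 0.789 in aged and from 0.0683 to 0.0969 in young libraries, and Comp to Acan, the aggrecan core protein, from 7.90 to 16.3 and from 4.34 to 5.70. Comp to Fn1 overlapped, at 0.532 to 0.910 in aged and 0.789 to 1.11 in young libraries. Comp to Fmod, the collagen-binding proteoglycan fibromodulin, overlapped too, at 0.878 to 1.45 in aged and 0.644 to 0.950 in young libraries.

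Of 7 receptors and cell surface partners of thrombospondins, 3 rose, 2 fell and 2 were not called (median log2 fold change 0.18), beside 24.7% of all tested genes called higher and 21.6% called lower. Cd36, the scavenger receptor bound by type 1 repeats, ran from 23.6 to 43.3 FPKM in aged and from 4.37 to 13.4 FPKM in young libraries (log2 fold change 1.93 ± 0.28, SE, edgeR adjusted p = 0.000123). Cd36 is also made by muscle, fat, vessels and blood cells, and markers of muscle and of red cells were higher beside it. All 8 erythroid markers rose, with sums of 420 to 1593 CPM in aged and 28.5 to 200 CPM in young libraries, and their part in the level of Cd36 was not tested. Cd47, the receptor bound by the C-terminal part of thrombospondin 1, rose by 0.52 on the log2 scale. Cacna2d1, a calcium channel subunit that binds thrombospondins, rose by 0.24 (edgeR adjusted p = 0.0403), and its ages overlapped. The integrin chains Itgav and Itgb1 fell (log2 fold changes −0.65 and −0.32), and the integrin chain Itgb3 (−0.13) and Lrp1 (0.18), an endocytic receptor, were not called. Itgb1, with the highest FPKM of the list, stood at 150 ± 15.6 FPKM in aged and 161 ± 4.38 FPKM in young cartilage.

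Among 5 TGF-beta ligands and latency proteins, 1 rose, 1 fell and 3 were not called, beside 24.7% of all tested genes called higher and 21.6% called lower. Lrrc32 (GARP), which holds latent TGF-beta at the cell surface and is also carried by platelets, rose by 0.90 ± 0.17 (SE) on the log2 scale, at 6.83 ± 2.12 FPKM in aged and 3.15 ± 0.294 FPKM in young cartilage. Tgfb3 had a log2 fold change of −0.39, and Tgfb1, with the highest FPKM of the list, stood at 144 FPKM in aged and 113 FPKM in young cartilage (log2 fold change 0.15, edgeR adjusted p = 0.055). Of the 6 proteases known to cleave COMP or thrombospondins, 3 fell and none rose, beside the same shares of all tested genes. Counts on lists this short are not read as results about the lists. Adamts4, Adamts7 and Adamts12, metalloproteinases that cleave COMP, had log2 fold changes of −1.50 ± 0.19, −0.63 ± 0.13 and −0.50 ± 0.11 (SE). Htra1, a serine protease and the one with the highest FPKM of the list, was not called, at 458 ± 66.1 FPKM in aged and 397 ± 28.7 FPKM in young cartilage.

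Of 6 endoplasmic reticulum chaperones that handle COMP, 2 fell and none rose, beside 21.6% of all tested genes called lower, and a count of this size is not read as a result about the list. P4hb and Pdia4, which form disulfide bonds, had log2 fold changes of −0.49 ± 0.09 and −0.37 ± 0.09 (SE), and Calr (calreticulin) was not called at 401 FPKM in aged and 409 FPKM in young cartilage (log2 fold change −0.22, edgeR adjusted p = 0.06). Hspa5 (BiP) was not called at 0.03 ± 0.14 (SE, edgeR adjusted p = 0.891). Pofut2, which adds fucose to type 1 repeats, fell by 0.57 on the log2 scale, and B3glct, which extends that sugar, was not called. Over all 39 partner genes 5 rose and 18 fell, beside 24.7% of all tested genes called higher and 21.6% called lower. With library sizes alone 10 rose and 15 fell, and without young replicate 2, 8 rose and 17 fell.

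**Figure D4:**
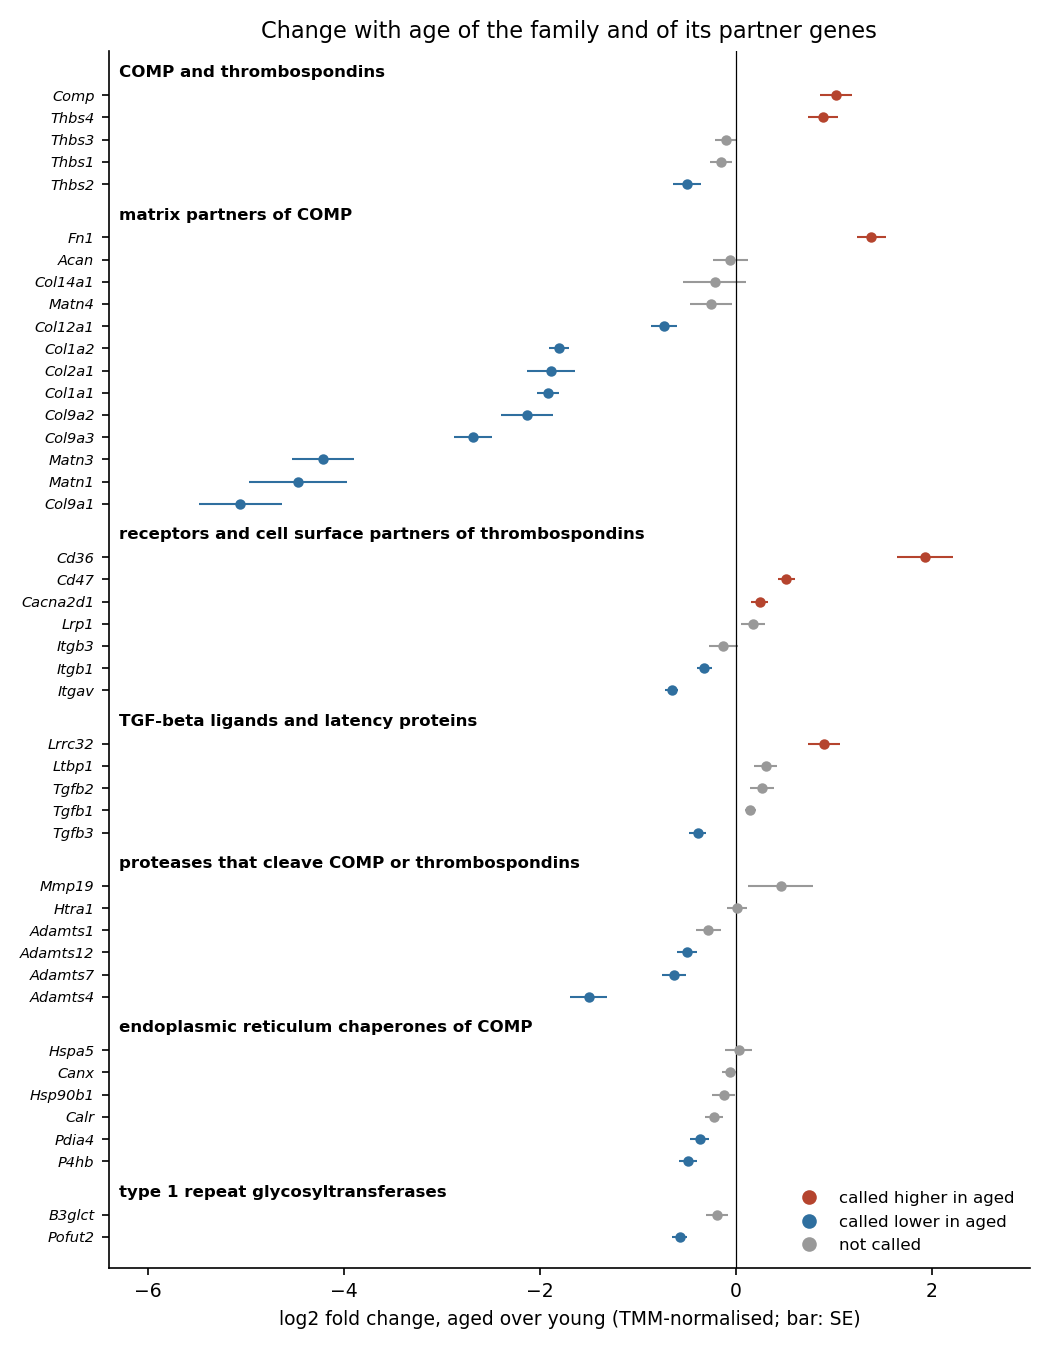
Log2 fold change (aged over young, TMM-normalised, bars are SE) of the 5 family members and 39 partner genes by role, coloured by the edgeR call at an adjusted p under 0.05. Comp (1.02) and Thbs4 (0.89) lie on the higher side with Fn1 (1.38), while the type IX collagen chains and Matn3 lie far on the lower side; the fitted value of Matn1 rests on very few counts.

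The genes whose pattern was most like each member were found by the SD of the log2 ratio of CPM to it over the 13 libraries, among 9012 genes with a mean of at least 5 FPKM. The SD spans both ages, so a like difference with age lowers it, and likeness within an age was not tested. For Comp, whose own log2 CPM had an SD of 0.591, these were Cilp2 (SD of the ratio 0.196), a protein of the cartilage intermediate layer family, Bcl2 (0.206), an inhibitor of cell death, and Bcl6 (0.209), a transcriptional repressor. Cilp2 was also higher in aged cartilage, at 121 FPKM against 57.2 FPKM in young cartilage. Bcl2 and Bcl6 were called higher too, at log2 fold changes of 0.82 and 0.97. For Thbs4 (SD 0.537) they were C1s1 (0.134), a complement protease, Mfn2 (0.166), which acts in mitochondrial fusion, and Ak1 (0.168), the adenylate kinase of muscle. C1s1, Mfn2 and Ak1 were likewise called higher, at log2 fold changes of 0.73, 0.80 and 0.89. Thbs2 (SD 0.381) was closest to Fstl1 (0.118), a secreted protein of mesenchymal cells, Egfr (0.146) and the gelatinase Mmp2 (0.151), which were called lower as Thbs2 was. Thbs1 (SD 0.225) was closest to the actin crosslinker Actn1 (0.123), and Thbs3 (SD 0.214) to Srxn1 (0.0919), an antioxidant enzyme. Both of these members varied little, which leaves little room for a larger SD.

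Comp and Thbs4 kept a positive log2 fold change under each of the 15 other processing choices run on these libraries and without each library in turn, and lost the call only with the muscle score. The log2 fold change of Comp lay between 0.79 and 1.43 and that of Thbs4 between 0.46 and 1.37 over the 15 choices. Both upper ends came from the fit with the erythroid and neutrophil score, which did not overlap between the ages.

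**Figure D5:**
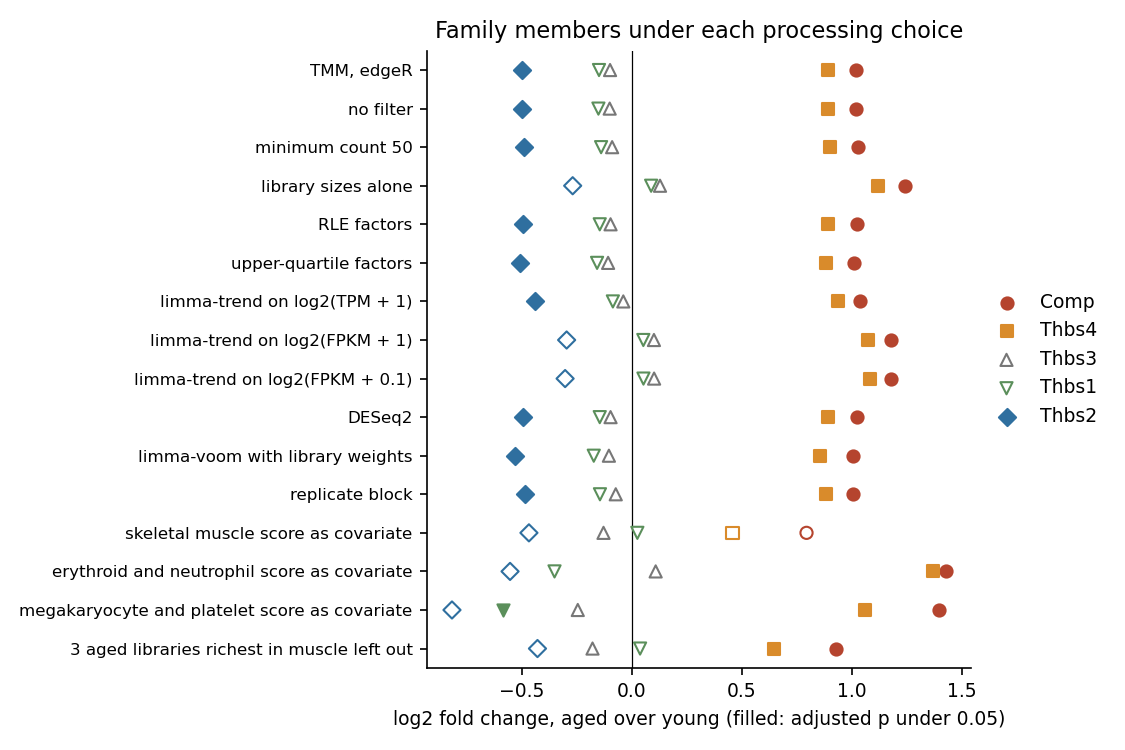
Log2 fold change (aged over young) of the 5 genes under the reported fit (top) and each other processing choice, filled where the adjusted p was under 0.05. Comp (0.79 to 1.43) and Thbs4 (0.46 to 1.37) stay above 0, Thbs2 stays below 0, and Thbs1 and Thbs3 lie on both sides of 0.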

How the data were processed

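Messenger RNA of 6 aged and 7 young libraries was captured on oligo(dT) beads and sequenced strand-specifically, per the labels' protocols. Per the submitters' processing notes, which give no roles, the tools were RSEM 1.3.1, HISAT2 2.1.0, DESeq2 1.4.5 and Bowtie2 2.3.4.3, and the build was GRCm39. The authors deposited 1 table with expected counts (5.3% of values not whole), FPKM and TPM for each library, per the file headers. Both FPKM and TPM were normalised by the authors for length and depth.

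Titles gave the age group of each library. Rounded expected counts were fitted in R 4.3.3 with edgeR 4.0.16 (filterByExpr with minimum count 10 and minimum total count 15, TMM, robust quasi-likelihood test, age as the only term). The SE is the log2 fold change divided by the square root of F. Other settings used limma 3.58.1 and DESeq2 1.42.0. Marker scores are mean log2 CPM with a prior count of 2. On simulated counts for 14067 genes, aged versus young, 68% of genes changed 1.5-fold and 94% of those changed 2-fold were recovered, with 4.79% false calls. Only 50 genes were changed at each fold, with noise independent between genes, where 46.2% of genes were called in the data. These rates therefore need not hold for the reported calls. The smallest chi-square per degree of freedom between libraries of an age was 10.1, so none was a duplicate. Same-numbered libraries did not deviate together in each pair (correlations from −0.12 to 0.258), so numbers were not taken as pairs.

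Members, partner lists and marker lists were chosen with earlier results of these data known. Named partners were up to 3 called genes with the largest rise and fall and the most abundant gene of each list; others were named after their values were seen. Of 18748 gene IDs, 18609 were in the RefSeq gene table. Plots were made in Python 3.11.15 with matplotlib 3.10.9.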

Additional observations from a re-analysis of the deposited data

How the results depend on the processing

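The numbers of the replicates pair nothing by the labels, and with the replicate block on 12 libraries the log2 fold changes were 1.01 for Comp, 0.88 for Thbs4, −0.07 for Thbs3, −0.15 for Thbs1 and −0.49 for Thbs2, with no call changed, while 5771 genes were called in place of 6504. Only 2 of 6 aged libraries correlated best with the young library of their number. Thbs1 and Thbs3 turned to 0.0875 and 0.128 with library sizes alone, to 0.0519 and 0.1003 on log2(FPKM + 1) and to 0.0525 and 0.101 on log2(FPKM + 0.1). Thbs1 turned to 0.0248 with the muscle score and to 0.0372 without the 3 aged libraries richest in muscle, and Thbs3 to 0.108 when erythroid and neutrophil markers were the covariate. None of these was called. Thbs1 was called at −0.59 with the megakaryocyte and platelet score. Comp and Thbs4 were not called with the muscle score (0.79 and 0.46). Thbs2 was not called with library sizes alone (−0.27), on the FPKM scales (−0.297 and −0.304 with pseudocounts of 1 and 0.1), with the muscle score (−0.47), the score of erythroid and neutrophil markers (−0.55) or the megakaryocyte and platelet score (−0.82), or without the 3 aged libraries richest in muscle (−0.43); the cause was not tested.

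All genes called numbered 3616 with the muscle score, 1775 with that of erythroid and neutrophil markers and 2423 with the megakaryocyte and platelet score. Calls split into 3471 higher and 3033 lower with TMM, 7034 and 1253 with library sizes alone, 3883 and 2211 on log2(TPM + 1), 6250 and 1361 on log2(FPKM + 1), and 6234 and 1366 on log2(FPKM + 0.1). Partner genes called higher numbered 10 with library sizes alone, 8 on log2(TPM + 1), 9 on each FPKM scale, 3 with the erythroid and neutrophil score, 2 with the megakaryocyte and platelet score, while partner genes called lower numbered 10 with the erythroid and neutrophil score.

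Without each library in turn, log2 fold changes ran from 0.88 to 1.11 for Comp, 0.77 to 0.98 for Thbs4, −0.17 to −0.05 for Thbs3, −0.23 to −0.09 for Thbs1 and −0.65 to −0.45 for Thbs2, and no member changed its call. Genes called ran from 5888 to 6513, partner genes called higher from 4 to 8 (8 without young replicate 2) and lower from 17 to 21. The fit with the megakaryocyte and platelet score and the one without the 3 aged libraries richest in muscle were chosen after seeing the data. The marker scores themselves follow age, with the muscle score between 7.35 and 9.67 in aged and between 5.36 and 7.995 in young libraries. The erythroid and neutrophil score did not overlap, at 5.89 to 7.79 in aged and 3.57 to 5.29 in young libraries. A fit with that score therefore compares no aged and young libraries of like score. The megakaryocyte and platelet score ran from 2.04 to 5.27 in aged and from 1.24 to 2.69 in young libraries. Depth limits Matn1, which lay near 0 counts in aged libraries.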

Other observations

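Genes next to the family on the chromosome, chosen by position in the GENCODE annotation (GRCm38), are given here for comparison. Smoc2, a secreted calcium-binding matrix protein and the nearest protein-coding gene on the far side of Thbs2, was at 341 ± 85.2 CPM in aged cartilage (SD, n = 6) and 119 ± 18.5 CPM in young cartilage (SD, n = 7). Its log2 fold change was 1.52 ± 0.16 (SE, edgeR adjusted p = 4.98e-06), where that of Thbs2 was −0.50. Serinc5, beside Thbs4, was lower in aged cartilage (log2 fold change −0.70 ± 0.10, SE, edgeR adjusted p = 8.64e-05), and Mtx3, on the other side of Thbs4, was not called at 0.01 ± 0.09 (SE). Crtc1 and Upf1, which flank Comp, were not called at −0.05 and 0.11.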
